A study of Homo sapiens with 4 samples.

Results

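Nuclear-retained long non-coding RNAs (lncRNAs) were examined in ribosome footprint libraries of 4 human leukemia cell lines. The set held 7 genes, MALAT1, NEAT1, KCNQ1OT1, MEG3, JPX, FTX and LINC-PINT, taken by gene name from the 60651 genes in the files, of which 14836 were classed as lncRNA. They are named as RNAs that are known to act in the nucleus, and the set was chosen as a background for lncRNA signal that does not come from translation. Whether any of the 7 is translated was not tested. The rule uses names only, and it was set with earlier results of these data known. All 7 were present in the files and all 7 held signal in at least 1 line.

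These RNAs have different jobs. MALAT1 is an abundant RNA of nuclear speckles, the bodies that store splicing factors, and NEAT1 is the scaffold of paraspeckles, bodies that hold RNA-binding proteins. KCNQ1OT1 and MEG3 are imprinted, which means that they are transcribed from the copy inherited from 1 parent, and each is known for the control of neighbouring genes in cis. JPX and FTX lie in the X inactivation centre and are described as activators of X inactivation in development. LINC-PINT is induced by p53 and has been described to act with Polycomb repressive complex 2, a histone methyltransferase.

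The study sequenced ribosome-protected fragments once from each of 4 lines: K562, from a chronic myeloid leukemia with erythroid features, THP-1 (labelled THP_1), a monocytic leukemia line, MOLM13, a further acute monocytic leukemia line, and HL60, a promyelocytic leukemia line. No treatment or genetic change was described, and the media differed, with IMDM for K562 and HL60, RPMI for THP-1 and DMEM for MOLM13. Cells were lysed with detergent and cycloheximide, the cleared lysates were digested with nuclease, and the fragments were passed over a gel filtration spin column. A fragment protected by a ribosome and one protected by another RNA-protein particle cannot be told apart in these values. The deposited file of the third library carries a name other than its label, so it is called the MOLM13-labelled library here.

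With 1 library per line there was no replicate, no test was possible and no p-value is given. Levels are TPM, transcript abundance per length as a share of the library, summed over the transcripts of a gene and scaled between libraries, and intervals are 95% Poisson intervals of the footprint count, which cover counting error only. A line was called high for a gene where its log2(scaled TPM + 1) exceeded those of all other lines by 2 or more and it had 600 or more aligned bases. It was called low where it lay 2 or more under all other lines and each of those had 600 or more aligned bases. The pseudocount of 1 understates the folds of low genes. A lower level in a line cannot be told apart from fewer RNA molecules with the same density of fragments, since no RNA level was used here.

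Aligned depth ran between 344 and 973 megabases and lncRNA genes took 0.830% to 1.46% of it. Counts are given as footprint equivalents, which are aligned bases divided by 29, the most frequent fragment length. Between 850 and 1213 lncRNA genes were above 0 per library. An exact 0 is written here as listed at 0, because 3 to 7 of 80 ribosomal protein genes, which every cell uses, were listed at 0 as well. All 5 erythroid markers, among them HBZ and HBE1, were called high in K562. The MOLM13-labelled library had HBE1 at 11.1 and GATA1 at 6.14 scaled TPM, against 10580 and 96.9 in K562, with HBZ, KLF1 and GYPB listed at 0. HL60 had only KLF1 above 0, at 0.642, and THP-1 had all 5 listed at 0. All 4 monocytic markers, IRF8 (a monocyte transcription factor) among them, were called high in THP-1. Of the 5 leukocyte markers, only MPO, the neutrophil granule peroxidase, was called high in HL60. AZU1 and LYZ, from the same list, were called high in THP-1 and were lower in HL60. SPI1 and PTPRC were not called high in any line. The MOLM13-labelled library was low in its own lineage markers: the 4 monocytic markers summed to 20.2 scaled TPM, against 1208 in THP-1, with CD68 and CSF1R listed at 0, and the 5 leukocyte markers summed to 184, of which PTPRC made 148, against 5116 in THP-1 and 7560 in HL60. The 6 markers of other tissues summed to 100.0, 30.3, 32.0 and 15.0 scaled TPM in K562, THP-1, the MOLM13-labelled library and HL60, most of it EPCAM, an epithelial surface protein, in K562 (96.2) and the MOLM13-labelled library (27.2). EPCAM was also the highest of these markers in HL60 (7.91) and THP-1 (14.7). The signal beyond EPCAM came in each library from COL1A1 and COL1A2, the chains of type I collagen. COL1A2 reached 12.5 in THP-1. ALB, CDH5 and INS were listed at 0 in all 4 libraries. The part of these differences in the results on the 7 RNAs was not tested.

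MALAT1 stood far above the other 6 RNAs in every library. K562 had 305 scaled TPM, THP-1 353, the MOLM13-labelled library 254 and HL60 86.7. The counting intervals were 302 to 308, 350.0 to 356, 251 to 257 and 85.6 to 87.8 in the same order, so no 2 of them overlapped, and HL60 was the lowest. MALAT1 (ENSG00000251562.8, 17 annotated transcripts) lies on the plus strand at chr11:65497688-65506516 of hg38, and 3 of its transcripts held signal in some library. Between 23859 and 56834 footprint equivalents fell on it per library, which is a deep count for a lncRNA. It ranked 6th, 5th, 5th and 10th by level among the lncRNA genes above 0, and second, first, first and second by aligned bases.

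THP-1 exceeded HL60 in MALAT1 by a log2 difference of 2.01, or 4.07-fold, which was the only pair of lines past the distance of 2 for this gene. K562 exceeded HL60 by 1.80 on the same scale and the MOLM13-labelled library exceeded it by 1.54. The THP-1 to HL60 distance was close to the limit and was lost with the deposited TPM (1.97), with TPM rescaled over protein-coding genes (2.00 after rounding), with a pseudocount of 5 (1.97), with aligned bases in place of a level per length (1.82) and with the most used transcript alone (1.65). Which of K562 and THP-1 was higher depended on the scaling: K562 minus THP-1 was -0.21 in scaled TPM and 0.14 with TPM rescaled over protein-coding genes. Of the lncRNA genes other than these 7, 5 had a higher level than MALAT1 in K562, 4 in THP-1, 4 in the MOLM13-labelled library and 9 in HL60. SNHG1, a spliced and cytoplasmic host gene of small nucleolar RNAs, was one of them, at 1085, 379, 804 and 1001 scaled TPM.

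**Figure D1:**
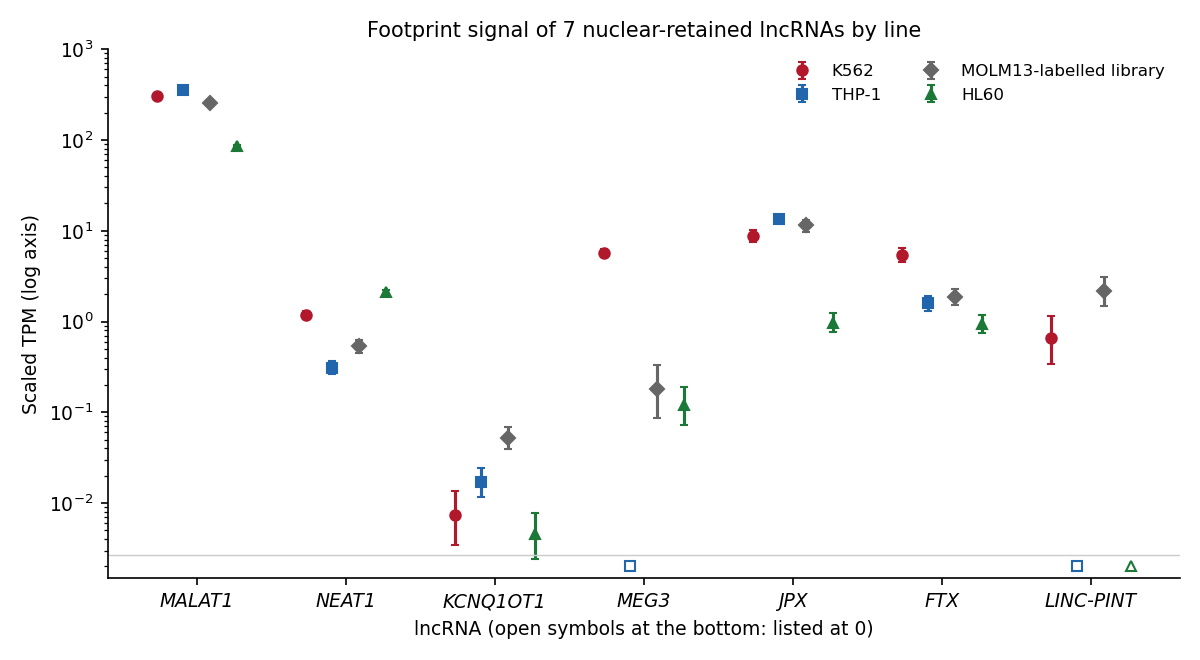
Scaled TPM (log axis) of the 7 nuclear-retained lncRNAs in 4 libraries, with points for each library, bars for the 95% counting interval, and open symbols at the bottom for genes listed at 0. MALAT1 lies between 86.7 and 353, MEG3 stands at 5.65 in K562 and at most 0.181 elsewhere, and JPX stands at 0.973 in HL60, without the reads given to AL353804.3, and at 8.69 to 13.4 in the other lines.

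The coverage of MALAT1 was also high beside untranslated sequence of mRNAs. No RNA level was used for either, so the density of fragments per RNA molecule was not compared. Mean coverage on its 8708-base single-exon transcript was 275, 238, 224 and 81.6 per 1000 megabases aligned in K562, THP-1, the MOLM13-labelled library and HL60. It was compared with the mean coverage of whole 3′ untranslated exons, sequence that ribosomes are not expected to translate, in mRNAs with at least 600 aligned bases of coding exons. MALAT1 exceeded 100% of the 100, 128, 95 and 118 untranslated values in these libraries. It also exceeded 97.3%, 97.6%, 95.9% and 89.4% of the coding values, which came from 2138 to 2898 mRNAs. NEAT1 gave a different picture and exceeded 78.0%, 58.6%, 71.6% and 83.9% of the untranslated values, and 2.48%, 0.432%, 0.320% and 16.4% of the coding ones. Many untranslated values were 0: 39.1% in THP-1, 50.5% in the MOLM13-labelled library, the most in K562 and the fewest in HL60. KCNQ1OT1, at a far lower coverage, thus still exceeded 53.7% of them in the MOLM13-labelled library. JPX exceeded 93.8% of these values in THP-1, 94.7% in the MOLM13-labelled library, slightly fewer in K562 and 58.5% in HL60. It exceeded 31.2%, 51.04%, 34.3% and 0.449% of the coding values in K562, THP-1, the MOLM13-labelled library and HL60. These JPX values are of 1 transcript, of 1364 bases, which held 100%, 88.7%, 100% and 12.6% of the JPX bases in the same order. They also leave out the reads given in HL60 to AL353804.3, a short RNA gene on the start of JPX, so the HL60 values do not cover all signal there.

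Signal along MALAT1 was nearly level in 3 libraries, as far as the files can place it, since coverage inside a single long exon is deposited as 1 mean. In THP-1 the stretch chr11:65498969-65503905 had a coverage of 310 per 1000 megabases, against 238 over most of the remaining transcript. The same stretch had 278, against 275, in K562, 237, against 224, in the MOLM13-labelled library, and 81.7, against 81.6, in HL60. The difference in THP-1 came from reads that were assigned to a spliced transcript of 5340 bases, which held 240256 aligned bases there and 484 to 20843 in the others. Exon stretches that MALAT1 shares with another gene made up 5.65% to 6.29% of its signal, with each stretch given the mean coverage of its exon. This is a share by length, and how many reads fell on these stretches was not measured. Without a strand option sense and antisense reads cannot be told apart.

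NEAT1 (ENSG00000245532.9, 9 transcripts, chr11:65422774-65445540, plus strand) was low and had its own order of lines. K562 had 1.19 scaled TPM, THP-1 0.311, the MOLM13-labelled library 0.532 and HL60 2.11. HL60 was thus the highest line for NEAT1 and the lowest for MALAT1, and no 2 of the 4 counting intervals of NEAT1 overlapped. The widest gap was between THP-1 and HL60, where THP-1 minus HL60 gave a log2 difference of -1.25, and no pair passed the distance of 2. The size of this gap depended on the measure, since the pseudocount understates folds at such low levels: THP-1 minus HL60 was -2.43 with a pseudocount of 0.1 and -2.68 in aligned bases, where K562 minus THP-1, at 2.02, passed the distance as well. Only the 22743-base transcript, the long form that builds paraspeckles, was given signal, with 135 to 1519 footprint equivalents per library. Between 33.8% and 82.7% of the other lncRNA genes above 0 were at or below its level, so that NEAT1 was near the middle of the lncRNAs in K562 and in the upper part in HL60.

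The mature 3′ ends of MALAT1 and NEAT1 are known to be cut by RNase P and to be protected by a triple helix of U-rich and A-rich stretches instead of a poly(A) tail. The 100 bases that end with the A-rich stretch are shown because this element is the feature that the 2 nuclear RNAs share, and because it lies within the transcripts that held the signal. Sequences are the GENCODE 29 transcripts on GRCh38, plus strand, and capitals mark TTTTGCTTTT and AAAAAGCAAAA.
MALAT1, chr11:65506017-65506116: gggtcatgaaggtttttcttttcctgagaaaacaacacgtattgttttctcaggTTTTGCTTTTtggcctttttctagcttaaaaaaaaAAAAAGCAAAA
NEAT1, chr11:65445441-65445540: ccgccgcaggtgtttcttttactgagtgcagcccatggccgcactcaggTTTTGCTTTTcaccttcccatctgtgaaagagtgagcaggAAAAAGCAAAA

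The second motif is the last 11 bases of the NEAT1 transcript, and the first is the reverse complement of the last 10 of these. Each window was cut to end at the second motif, so its presence in both was fixed in advance. Each window held each motif 1 time. In NEAT1 the window ends at the last base of the 22743-base transcript, and in MALAT1 it ends 353 bases before the annotated end. The motifs were searched on the transcribed strand, they do not overlap in either window, and the first of them read on the other strand, AAAAGCAAAA, lies inside the second. Of 301714 windows of 100 bases laid end to end over all lncRNA transcripts, 0.0646% held the first motif and 0.0232% the second. Both motifs occurred in 5 of 29566 lncRNA transcripts, the MALAT1 and NEAT1 transcripts shown here among them. In MALAT1 the segment that holds the window had the mean coverage of the rest of the transcript in all 4 libraries, which is 1 deposited value for the exon and does not place fragments on the element itself.

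KCNQ1OT1 was above 0 in all 4 libraries but at the lowest level among the 7 wherever all of them were detected. It is a single exon of 91667 bases (ENSG00000269821.1, chr11:2608328-2699994, minus strand, antisense to KCNQ1), and 9.93, 31.9, 53.7 and 13.1 footprint equivalents fell on all of it in K562, THP-1, the MOLM13-labelled library and HL60. Its level was 0.00730, 0.0172, 0.0525 and 0.00451 scaled TPM in the same order. The counting interval of K562 overlapped with those of THP-1 and HL60, and the MOLM13-labelled library was above the other 3. At 0.0525 it was still lower than 90.3% of the lncRNA genes above 0 in that library. Of the 9 genes listed as its imprinted neighbours, SLC22A18, a transporter, was called high in THP-1, at 43.8 scaled TPM, against 3.77 in the MOLM13-labelled library, and was listed at 0 in K562 and HL60. The other 8 were not called. Over all genes the rule called 0.93% high in THP-1. Of those with at least 600 aligned bases in some line, it called 14.3% high or low in some line. CDKN1C, the cell cycle inhibitor that KCNQ1OT1 is known to silence, stood at 2.38, 0, 0 and 0.210 scaled TPM.

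MEG3 held signal mainly in K562. Its level was 5.65 scaled TPM in K562, with a counting interval of 5.08 to 6.27, 0 in THP-1, 0.181 in the MOLM13-labelled library and 0.120 in HL60. K562 was called high, by a log2 distance of 2.49 to the nearest other line, and was 31.2-fold above the MOLM13-labelled library and 46.9-fold above HL60. No fold was taken against THP-1, where it was listed at 0. The rule called 0.337% of all lncRNA genes high in K562, and 14.2% of the 1116 with at least 600 aligned bases in some line were called high in at least 1 of the 4. MEG3 (ENSG00000214548.18, 50 transcripts, chr14:100779410-100861031, plus strand) had 360 footprint equivalents in K562, 9.83 in the MOLM13-labelled library and 18.3 in HL60, and the intervals of these last 2 overlapped.

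The neighbours of MEG3 in the imprinted DLK1-MEG3 domain were also seen in K562. DLK1, a membrane protein of the Notch ligand family that is expressed from the paternal copy, stood at 26.0 scaled TPM in K562 and was listed at 0 in the other 3 libraries. MEG8, a maternally expressed lncRNA downstream of MEG3, stood at 8.04 in K562 and 0.260 in the MOLM13-labelled library, and both THP-1 and HL60 had it listed at 0. Both were called high in K562. RTL1, a retrotransposon-derived protein gene, stood at 1.90 in K562 and at 0 elsewhere and was not called, and MEG9, DIO3 and DIO3OS were listed at 0 in all 4. Of the 6 listed neighbours 2 were thus called, both high in K562. Over all genes the rule called 0.653% high in K562. It called 2.30% of the 17210 genes with at least 600 aligned bases in some line, a set without the neighbours listed at 0. In K562, exon stretches shared with another gene made up 37.0% of the MEG8 bases and 8.83% of the MEG3 bases. Each stretch was given the mean coverage of its exon.

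**Figure D2:**
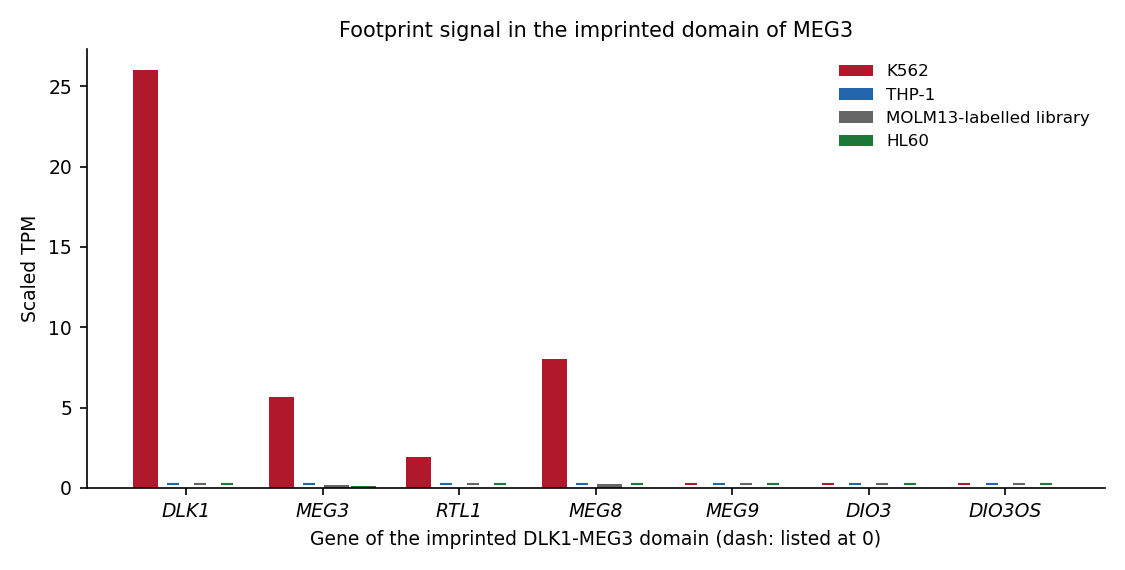
Scaled TPM of MEG3 and 6 neighbours of its imprinted domain in 4 libraries, with a dash where a gene was listed at 0. K562 has the bars of DLK1 (26.0), MEG3 (5.65), RTL1 (1.90) and MEG8 (8.04), and no other library exceeds 0.260 in any of the 7 genes.

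Within MEG3 the signal of K562 was placed on 4 transcripts, of which a 3-exon form of 4504 bases held 7002 of 10444 aligned bases. The 2 short exons with the highest coverage in K562 are shown with each ATG in capitals, the codon at which translation starts in most open reading frames (GENCODE 29, GRCh38, plus strand).
MEG3, chr14:100836167-100836300: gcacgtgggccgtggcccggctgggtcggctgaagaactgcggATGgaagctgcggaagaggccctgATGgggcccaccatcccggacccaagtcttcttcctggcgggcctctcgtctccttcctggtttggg
MEG3, chr14:100828708-100828816: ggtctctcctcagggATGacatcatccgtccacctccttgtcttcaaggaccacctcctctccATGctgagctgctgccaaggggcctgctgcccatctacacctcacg

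These exons held 44.0 and 34.8 footprint equivalents in K562, or 12.2% and 9.65% of the bases of the gene, and none in the other 3 libraries. Their coverage was 18.2 and 17.7 times the mean over the exons of MEG3 with signal. Each held 2 ATG triplets, and no ATG in either was followed by a stop codon in frame within the exon. ATG occurred in 88.4% and 83.7% of lncRNA exons within 5 bases of their lengths, so its presence does not set them apart. The first of the 2 exons shares 32 of its 134 bases with AL117190.1, a gene on the same strand. AL117190.1 had 1.60 deposited TPM in K562 and 0 elsewhere.

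JPX was the second highest of the 7 in all lines but HL60. K562 had 8.69 scaled TPM, THP-1 13.4, the MOLM13-labelled library 11.4 and HL60 0.973. The counting intervals were 7.45 to 10.1, 12.0 to 14.8, 9.81 to 13.3 and 0.759 to 1.23, so that the MOLM13-labelled library overlapped with both K562 and THP-1, while HL60 lay apart. HL60, the deepest of the 4 libraries, was called low, by a log2 distance of -2.30 to the nearest other line. Each of the other lines exceeded it, by 8.93-fold in K562, 13.7-fold in THP-1 and 11.8-fold in the MOLM13-labelled library. This call ended when reads given to a second annotation inside JPX were added, an alternative chosen after seeing the data. The rule called 0.0404% of all lncRNA genes low in HL60, and 2.24% of the 1116 with at least 600 aligned bases in some line were called low in at least 1 of the 4.

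The second annotation, AL353804.3, is a short RNA gene of 135 bases on the same strand, chrX:73944332-73944466, that lies on the start of JPX. It was listed at 0 in K562, THP-1 and the MOLM13-labelled library and held 8258 aligned bases in HL60, or 285 footprint equivalents, against 2033 aligned bases on JPX itself in HL60. JPX alone had 10.8 aligned bases per megabase in K562, 15.6 in THP-1, 14.7 in the MOLM13-labelled library and 2.09 in HL60. With the short RNA genes inside its exons added, the same 4 values were 10.8, 15.6, 14.7 and 10.6, with counting intervals of 9.25 to 12.5, 14.0 to 17.3, 12.6 to 17.0 and 9.50 to 11.7. K562 and HL60 then overlapped, and K562, THP-1 and the MOLM13-labelled library stood 1.02-fold, 1.47-fold and 1.39-fold over HL60. The low call of JPX in HL60 thus holds for the deposited split of reads between these annotations, and not for their sum.

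JPX (ENSG00000225470.8, 84 transcripts, chrX:73944182-74070408, plus strand) had 176, 364, 174 and 70.1 footprint equivalents in K562, THP-1, the MOLM13-labelled library and HL60. Exon stretches shared with another gene, at the mean coverage of their exon, made up 14.9%, 18.1%, 14.9% and 63.8% of its bases. Its most 5′ block of exons, chrX:73944182-73945696, took 100%, 94.2%, 100% and 60.8% of the JPX signal. A stretch of 133 bases in that block, where the first exon of the spliced forms and the single-exon form overlap, belonged to transcripts with signal in all 4 libraries. It is shown because, among short segments of JPX, it had the highest coverage per megabase summed over the 4 libraries. AL353804.3 covers all of it, and each ATG is in capitals (GENCODE 29, GRCh38, plus strand).
JPX, chrX:73944333-73944465: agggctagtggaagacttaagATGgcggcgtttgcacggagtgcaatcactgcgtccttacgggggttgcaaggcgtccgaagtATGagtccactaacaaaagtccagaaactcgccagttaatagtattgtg

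From its first ATG this stretch held 33 codons without a stop, followed by TAA, over bases 22 to 123 counted from its 5′ end. Of 2788 lncRNA exons within 5 bases of this length, 66.2% held an ATG with a stop codon in frame, and 3.73% held one of at least as many codons. The coverage given to JPX on it was 7.91, 15.8, 10.8 and 4.52 per 1000 megabases in K562, THP-1, the MOLM13-labelled library and HL60, and AL353804.3 had a mean of 62.9 in HL60. In K562 and the MOLM13-labelled library all JPX reads were given to a single-exon form of 1364 bases and deposited as 1 mean over it, so how much of them fell on this stretch cannot be told, and whether the reading frame was translated was not tested.

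FTX, which is transcribed from the opposite strand and overlaps exons of JPX, had its highest level in K562. K562 had 5.42 scaled TPM, THP-1 1.58, the MOLM13-labelled library 1.87 and HL60 0.945. The counting intervals of THP-1 and the MOLM13-labelled library overlapped, K562 lay above all 3, and HL60 below them. No call was made, with K562 at a log2 distance of 1.16 to the nearest other line. FTX (ENSG00000230590.11, 72 transcripts, chrX:73940435-74293574, minus strand) had 132, 116, 92.4 and 76.5 footprint equivalents in K562, THP-1, the MOLM13-labelled library and HL60. In aligned bases the K562 difference shrank to 1.63-fold over THP-1 and 1.04-fold over the MOLM13-labelled library, and with the most used transcript alone K562 was the lower, by log2 differences of -0.29 and -0.59. Exon stretches shared with another gene, at the mean coverage of their exon, made up 9.05%, 48.7%, 30.1% and 34.9% of its bases.

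The most 5′ block of FTX, chrX:74290822-74293574, held 74.5%, 29.3%, 45.3% and 42.9% of its signal, or 6.04, 1.46, 3.53 and 0.978 aligned bases per megabase, in K562, THP-1, the MOLM13-labelled library and HL60. Among exons of this block with signal in all 4 libraries, the one with the highest coverage per megabase summed over them is shown, a sum that the MOLM13-labelled library leads and in which K562 is low, from the transcribed minus strand, with each ATG in capitals (GENCODE 29, GRCh38).
FTX, chrX:74292427-74292516: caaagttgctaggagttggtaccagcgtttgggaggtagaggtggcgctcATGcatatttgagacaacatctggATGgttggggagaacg

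It had 0.534, 4.98, 18.3 and 10.6 footprint equivalents in K562, THP-1, the MOLM13-labelled library and HL60, so the signal of K562 lay almost wholly on other segments of the block. Its longest frame from an ATG to a stop had 3 codons, and 40.7% of 3216 lncRNA exons of like length held one of at least 3. Of the 5 protein-coding neighbours listed for JPX and FTX, NHSL2 was called high in the MOLM13-labelled library, at 9.37 scaled TPM, against 0 in K562, 0.975 in THP-1 and 0.895 in HL60. The rule called 0.524% of all genes high in the MOLM13-labelled library. Of genes with at least 600 aligned bases in some line, it called 14.3% high or low in some line. RLIM, the ubiquitin ligase that promotes X inactivation, stood at 7.10, 10.9, 8.89 and 6.94 scaled TPM and was not called.

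**Figure D3:**
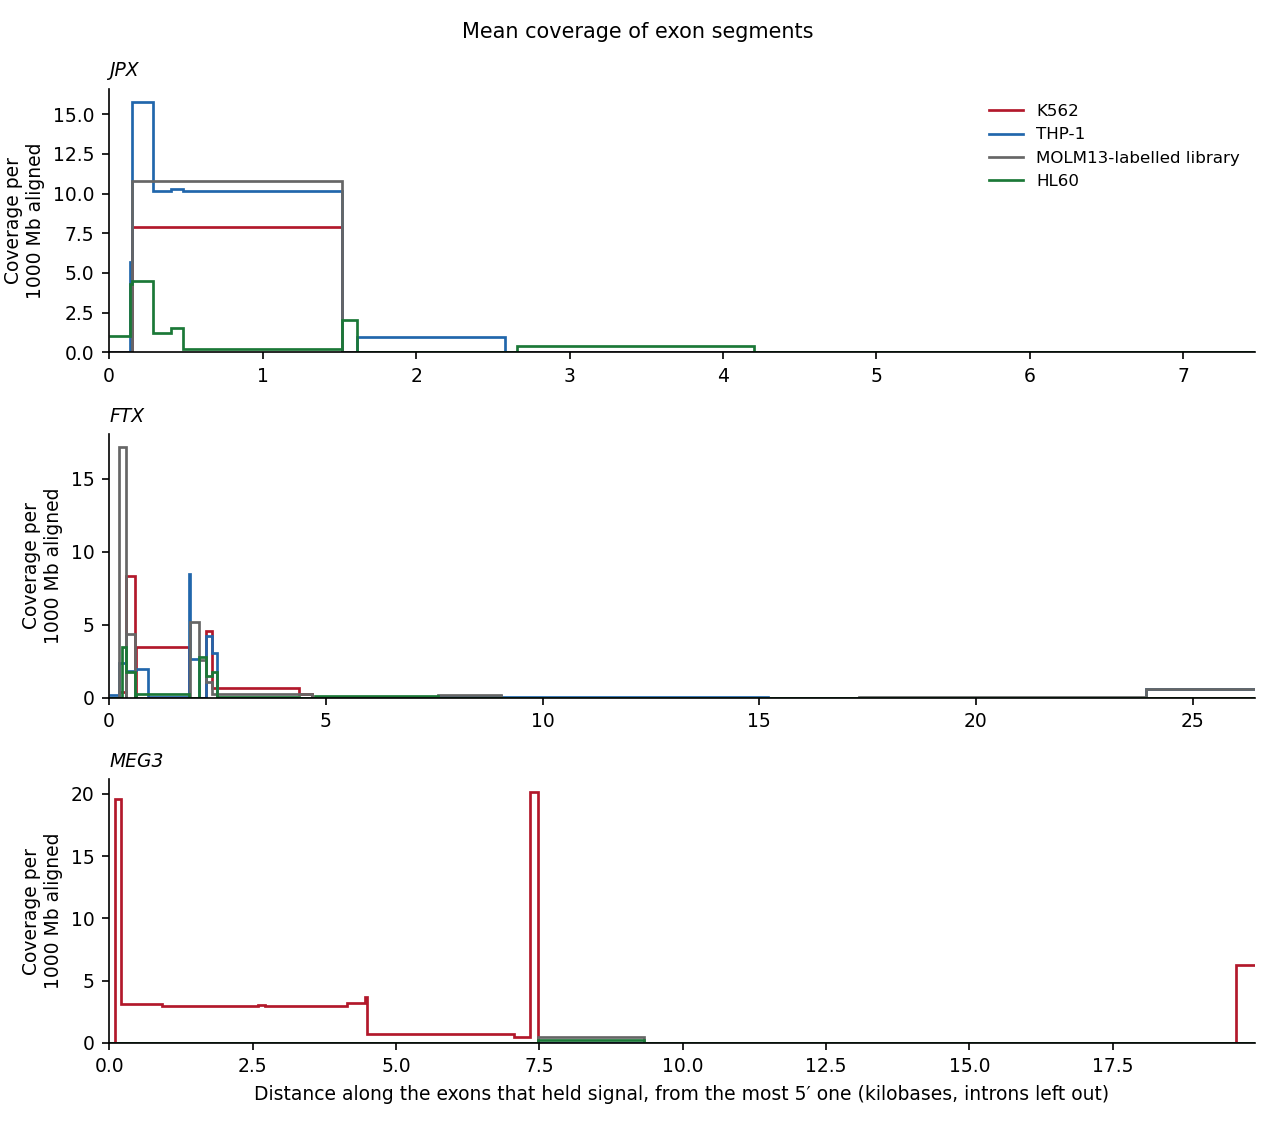
Mean coverage per 1000 megabases aligned (vertical axis) of exon segments of JPX, FTX and MEG3, laid end to end from the most 5′ exon with introns left out (horizontal axis, kilobases), with 1 line per library. JPX signal of K562 and the MOLM13-labelled library lies within the first 1.5 kilobases, and reads given to AL353804.3 in HL60 are not drawn. FTX signal is spread over several segments near its start, and in MEG3 the high segments are those of K562, with the MOLM13-labelled library at 0.449 and HL60 at 0.242 on a later stretch.

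LINC-PINT was seen in 2 libraries. Its level was 0.665 scaled TPM in K562 and 2.18 in the MOLM13-labelled library, and in THP-1 and HL60 it was listed at 0. In the MOLM13-labelled library 21.9% of its bases lay on exons shared with another gene. The counting intervals of K562 (0.344 to 1.16) and the MOLM13-labelled library (1.47 to 3.12) did not overlap, and no call was made. LINC-PINT (ENSG00000231721.7, 22 transcripts, chr7:130938963-131110176, minus strand) held 12.0 and 29.6 footprint equivalents in these libraries, all given to 1 spliced transcript of 1216 bases. Its first exon took 100% of the bases in K562 and 78.1% in the MOLM13-labelled library, and is shown from the minus strand for that reason, with its ATG in capitals (GENCODE 29, GRCh38).
LINC-PINT, chr7:131106271-131106356: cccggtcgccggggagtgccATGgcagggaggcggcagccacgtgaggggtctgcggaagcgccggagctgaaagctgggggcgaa

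The exon is rich in G and C, at 73.3%, and its single ATG had no stop codon in frame within it. ATG was present in 77.8% of lncRNA exons of like length. The JPX exon had 50.4%, the FTX exon 51.1%, and the MEG3 exons 67.2% and 59.6% G and C.

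Across the set, the calls were few. MEG3 was called high in K562 and JPX low in HL60, the second of which ended with the overlapping annotation added, and the other 5 genes were not called in any line. Of 42 combinations of a gene and a pair of lines, 7 were past the log2 distance of 2: 3 of MEG3, 3 of JPX and 1 of MALAT1. Of the 35 combinations with at least 600 aligned bases in either line 20.0% were called, and over all lncRNA genes the same rule called 21.8% of such combinations and 1.16% of all. The share of the set was thus near that of lncRNAs with measurable signal.

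**Figure D4:**
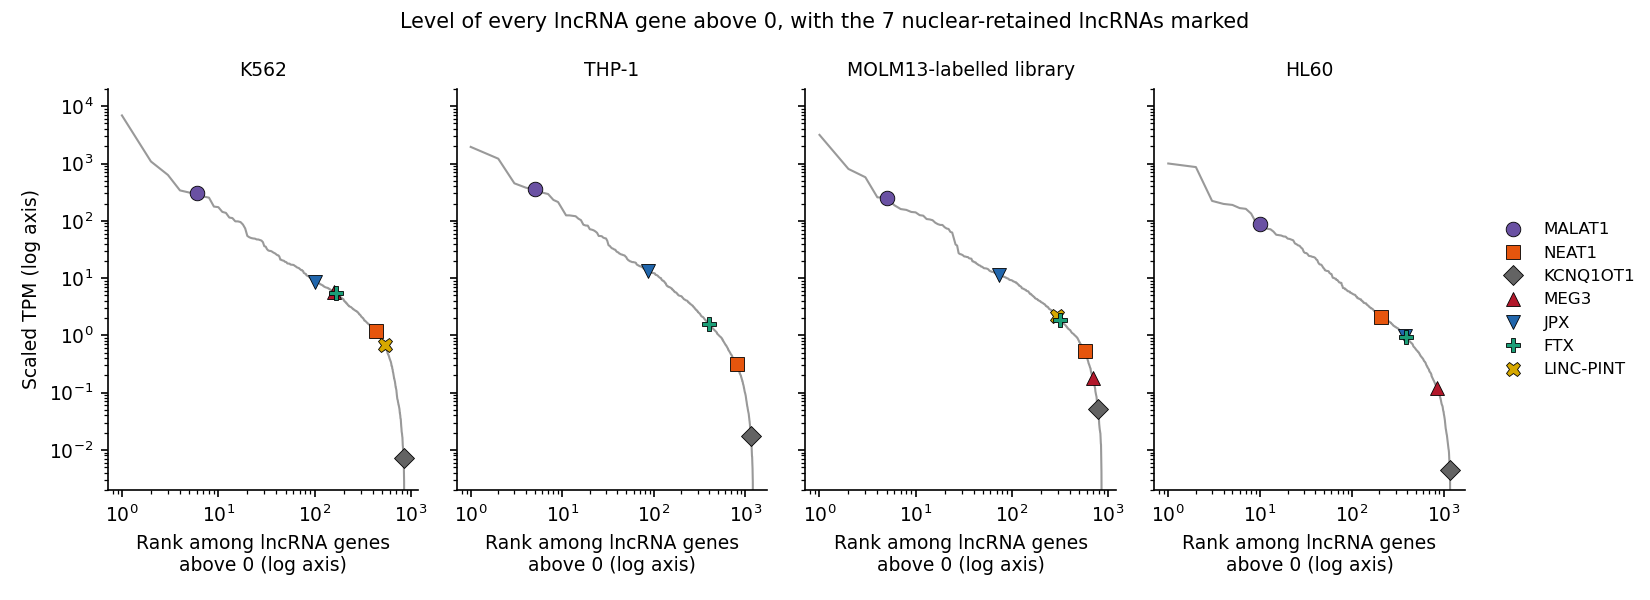
Scaled TPM of every lncRNA gene above 0 (log axis) against its rank (log axis), with 1 panel per library and symbols for the nuclear-retained lncRNAs that were above 0 there. MALAT1 ranks between 5th and 10th, JPX or NEAT1 is the next, and KCNQ1OT1 is near the end of every curve.

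MALAT1 carried nearly all the signal of the set. The 7 genes together took 17.0% of the aligned bases on lncRNA genes in K562, 20.8% in THP-1, 17.4% in the MOLM13-labelled library and 9.18% in HL60. Without MALAT1 the other 6 took 0.459%, 0.238%, 0.353% and 0.610%. A list of 11 lncRNAs known from the cytoplasm, most of them host genes of small nucleolar RNAs, took 19.5%, 11.8%, 20.5% and 33.8%. In aligned bases the nuclear set was above the cytoplasmic list in THP-1 and below it in the other 3. In scaled TPM, a level per length, it was below it in all 4, with sums of 327, 368, 270.0 and 90.8 over the 7 genes, against 2237, 1130.5, 1389.5 and 1572 over the list. In HL60 the share of the nuclear set in aligned bases was at its lowest while that of the cytoplasmic list was at its highest, with SNHG1 at 23.5% there. Below MALAT1, 98 other lncRNA genes in K562, 84 in THP-1, 71 in the MOLM13-labelled library and 205 in HL60 were higher than the next of the set, which was JPX in the first 3 and NEAT1 in HL60.

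**Figure D5:**
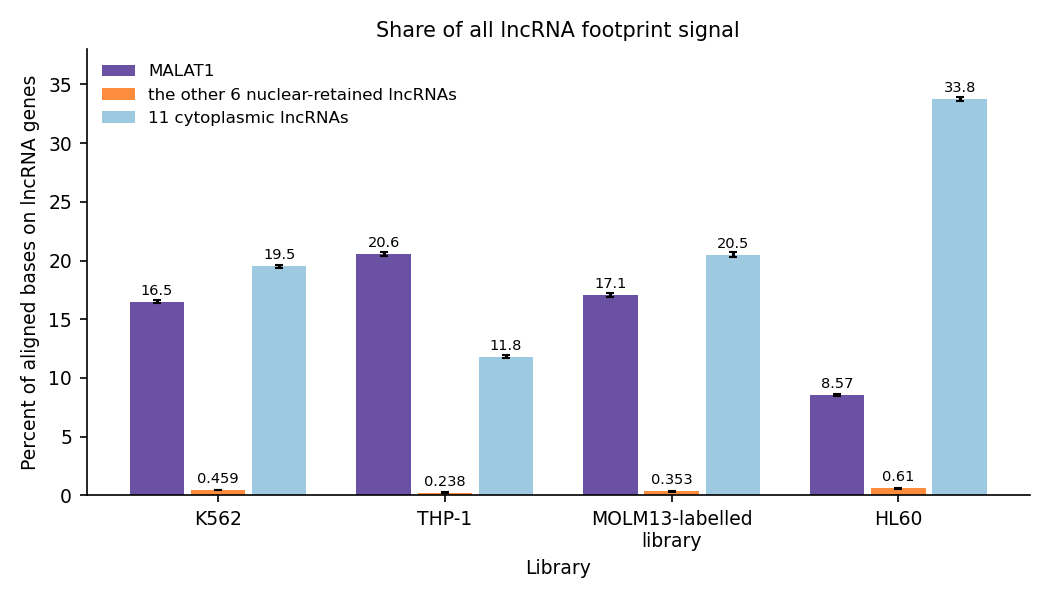
Percent of the aligned bases on all lncRNA genes (vertical axis, from 0) taken by MALAT1, by the other 6 nuclear-retained lncRNAs and by 11 cytoplasmic lncRNAs in each of 4 libraries, with bars for the 95% binomial counting interval. MALAT1 takes 8.57% to 20.6%, the other 6 at most 0.610%, and the cytoplasmic list 11.8% to 33.8%.

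Few genes for the proteins that these RNAs work with were called. None of 15 paraspeckle proteins was called in a line, and their median stood at 90.3, 56.6, 107 and 71.4 scaled TPM in K562, THP-1, the MOLM13-labelled library and HL60, against 0 to 0.90 over all protein-coding genes. NONO, a core paraspeckle protein, stood at 284, 134, 132 and 136, and SFPQ, its partner, at 251, 314, 260 and 292. None of 13 nuclear speckle proteins was called either, with SRRM2, a speckle scaffold, at 168, 281, 122 and 96.3. None of 9 genes of Polycomb repressive complex 2 was called, with EZH2, its catalytic subunit, at 59.3, 30.0, 9.68 and 17.8. Among 9 genes for the 3′ ends of MALAT1 and NEAT1, RPP21, a subunit of RNase P, was called low in the MOLM13-labelled library. RPP21 was listed at 0 there, against 43.1, 6.21 and 62.1 in K562, THP-1 and HL60. In these lines, exon stretches shared with another gene made up 36.5%, 66.3% and 91.1% of its bases, and read assignment there was not tested. In all, 1 of the 46 genes on these lists was called, or 2.17%. Over all genes the rule called 2.57% high and 1.58% low in some line, and of those with at least 600 aligned bases in some line it called 14.3% high or low.

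The genes with the most similar pattern over the 4 lines were sought for the 4 RNAs with at least 600 aligned bases in every library, by Euclidean distance of centred log2(scaled TPM + 1) among 8500 genes. Nearest to MALAT1 were AMOTL1, POLR3D and TLE1, at distances of 0.118, 0.124 and 0.162. Nearest to NEAT1 were H2BC12, GEMIN5 and NIP7, at 0.0138, 0.0569 and 0.0636. Nearest to JPX, in its level without AL353804.3, were CYFIP1, TPBG and CAPN2, at 0.200, 0.257 and 0.306, and nearest to FTX were SLC33A1, YAE1 and DBF4, at 0.112, 0.167 and 0.169. With 4 points per gene many genes come this close, and 57, 186, 18 and 153 genes lay within a distance of 0.5 of MALAT1, NEAT1, JPX and FTX.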

How the data were processed

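Per the file headers, the authors ran StringTie 2.1.5 on the annotated transcripts of GENCODE 37 without assembly and without a strand setting, and deposited TPM and coverage of transcripts and coverage of exons. The submitters' processing notes name the build hg38, Bowtie2 2.4.2, STAR 2.7.8a and Trim Galore 0.6.6. Deposited TPM was summed per gene and divided by the median ratio over 3751 genes with at least 10 TPM in all 4 libraries (K562 0.837, THP-1 1.01, MOLM13-labelled library 1.12, HL60 1.05). Aligned bases are the authors' deposited coverage times length, and division by 29, the modal fragment length, gives footprint equivalents. Bases on exon stretches shared, or not shared, with another gene are the mean coverage of the exon times the length of the stretch. Fragments without molecular identifiers are not independent molecules, so intervals cover counting error only. Gene types came from GENCODE 29 for 58405 genes and from RefSeq for 38, and 2208 were left without a type. Untranslated exons of at least 200 bases were taken in mRNAs with at least 100 bases of coding exons.

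Each line has 1 library, so values and rules of size are given with no test. The rules were tested on simulated data with counting error alone, for genes with at least 600 aligned bases and 1 TPM in every library. MEG3 lay outside this set, and reads split between overlapping genes were not simulated, so the simulation does not bear on the MEG3 call or on the split at JPX. The members and gene lists were chosen with earlier results of these data known. All 7 members are named, with the 3 nearest patterns per member and, of each list, the called genes (at most 3). Genes named beyond this (NONO, SFPQ, SRRM2, EZH2, CDKN1C, RLIM, RTL1, MEG9, DIO3, DIO3OS, SNHG1, AL353804.3, AL117190.1 and the listed markers) were chosen after their values were seen. Scripts used Matplotlib 3.10.9, SciPy 1.17.1, pandas 2.3.3, NumPy 2.4.6 and pyarrow 21.0.0 on Python 3.11.15.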

Additional observations from a re-analysis of the deposited data

How the results depend on the processing

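MEG3 was called high in K562 and JPX low in HL60 under every alternative tried except 3: a pseudocount of 5 and a log2 difference of 3 gave 0 calls each, and aligned bases with the short RNA genes inside member exons added, chosen after seeing the data, gave 1, that of MEG3. A log2 difference of 1 gave 4. Combinations of a gene and a pair of lines past the distance, 7 as reported, were 11 with a pseudocount of 0.1, 0 with 5, 16 at a log2 difference of 1 and 0 at 3. The fewer calls at a larger pseudocount or distance follow from how these are built. Calls among the partner lists, 5 as reported, were 9 with TPM rescaled over coding genes, 9 with aligned bases, with or without that addition, 12 and 2 with pseudocounts of 0.1 and 5, 18 with the most used transcript, and 20 and 2 at log2 differences of 1 and 3 (alternatives chosen after seeing the data). The share of lncRNA signal in K562, THP-1, the MOLM13-labelled library and HL60 was 2.27%, 3.61%, 2.84% and 1.57% in deposited TPM, which divides by transcript length, and 22.6%, 26.1%, 22.9% and 10.8% over exon bases shared with no other gene, which was also chosen after seeing the data. The same share over genes without any shared exon could not be given, because each of the 7 has one. Of 336 other log2 differences, 144 stayed within the counting interval, 192 moved past it and 9 took the opposite sign, none of them among the 56 of called pairs, which ran between 0.22 and 5.85. Deposited TPM shifted the median of 3751 genes by -0.26, 0.02, 0.17 and 0.07 on the log2 scale in the 4 lines, and rescaling over coding genes by 0.19, -0.16, 0.12 and -0.14. No paired analysis was possible because each line has 1 library. Counts limit the precision for KCNQ1OT1 and LINC-PINT, with at most 53.7 and 29.6 footprint equivalents in a library.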
